A study of Mus musculus with 8 samples.

Results

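The Toll-like receptor genes described here are Tlr1, Tlr2, Tlr3, Tlr4, Tlr5, Tlr6, Tlr7, Tlr8, Tlr9 and Tlr13, found in a lung RNA-Seq count table by their Entrez GeneID, 10 of 23469 genes. The study asked how overexpression of DDAH1, an enzyme that degrades the nitric oxide synthase inhibitor ADMA, affects the lung of mice challenged with house dust mite (HDM) extract. There were 4 groups of C57BL/6 mice with 2 libraries each. WP and WH stand for the libraries labelled wild-type and given PBS or HDM, and TP and TH for the libraries labelled DDAH1-transgenic and given PBS or HDM. All mice received 50 µl intratracheally 3 times per week for 3 weeks, with 100 µg of HDM in the PBS for WH and TH, and lungs were taken 24 h after the last challenge. Both libraries of a group came from 1 RNA pool of 4 lungs, so the spread between them is technical and every p-value below measures that spread and not the spread between mice. The transgene's promoter and sequence, and the sex and age of the mice, are not given in the sources used here.

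Toll-like receptors are membrane proteins of innate immune and epithelial cells that bind microbial molecules through an outer leucine-rich region and signal through a TIR domain inside the cell. At the cell surface, Tlr2 pairs with Tlr1 or Tlr6 to bind bacterial lipopeptides, Tlr4 binds lipopolysaccharide together with Ly96 and Cd14, and Tlr5 binds flagellin. In endosomes, Tlr3 binds double-stranded RNA, Tlr7 and Tlr8 single-stranded RNA, Tlr9 unmethylated CpG DNA and Tlr13 bacterial ribosomal RNA, and these receptors need the chaperone Unc93b1 and cleavage by endosomal proteases. In the lung they are known from macrophages, dendritic cells, neutrophils and B cells, and some also from epithelium, and mite allergens engage the Tlr4 complex.

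Tlr1 and Tlr6 are neighbours on the minus strand of chromosome 5 (GRCm38, Tlr1 at chr5:64924680-64933600 and Tlr6 at chr5:64953092-64970942), and parts of their coding sequences are identical, so a short read from those parts cannot be given to 1 of the 2 genes. Of the 2369 stretches of 50 bases in the Tlr6 coding sequence, 454 (19.2%) also occur in Tlr1, and these are 19.4% of the Tlr1 stretches. No stretch of the other 8 coding sequences occurs in a second member. The longest identical run is shown because the low Tlr6 counts of the TP libraries are read beside Tlr1. It spans 229 bases, coding positions 1507 to 1735 of Tlr6 (chr5:64953828-64954056) and 1468 to 1696 of Tlr1 (chr5:64925537-64925765), and between other members the longest identical run has 16 bases. The run, from the GRCm38 genome, reads 5′ to 3′ on the coding strand as follows.
Tlr1 and Tlr6 shared coding run: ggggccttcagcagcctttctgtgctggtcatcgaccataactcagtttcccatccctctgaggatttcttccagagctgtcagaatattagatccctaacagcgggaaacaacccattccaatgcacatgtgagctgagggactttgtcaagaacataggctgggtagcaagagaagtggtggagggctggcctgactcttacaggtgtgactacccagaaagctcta

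The members lie on 7 chromosomes, and the X chromosome holds 3 of them: Tlr7 (chrX:167303380-167330574) and its neighbour Tlr8 (chrX:167241123-167264329) on the minus strand, and Tlr13 (chrX:106143275-106160493) on the plus strand. Tlr2 lies at chr3:83836272-83841824, Tlr3 at chr8:45395665-45411075, Tlr4 at chr4:66827551-66846581, Tlr5 at chr1:182954752-182976044 and Tlr9 at chr9:106222598-106226876. Their coding lengths run from 2352 bases in Tlr2 to 3150 bases in Tlr7, and no coding exon overlaps another gene. RefSeq promoter entries (GRCm38.p6) were found for 8 of the 10 members. The 250 bases before a listed start are printed for Tlr6, Tlr9 and Tlr13, the members called in the interaction test below. They read 5′ to 3′ on the strand of the gene, with matches to the searched motifs in capitals.
Tlr6, chr5:64959167-64959416, minus strand: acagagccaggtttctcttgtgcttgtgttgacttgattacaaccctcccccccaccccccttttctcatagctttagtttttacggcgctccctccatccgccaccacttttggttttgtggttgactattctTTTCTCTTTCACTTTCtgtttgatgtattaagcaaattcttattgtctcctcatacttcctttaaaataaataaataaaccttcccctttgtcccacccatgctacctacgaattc
Tlr9, chr9:106222348-106222597, plus strand: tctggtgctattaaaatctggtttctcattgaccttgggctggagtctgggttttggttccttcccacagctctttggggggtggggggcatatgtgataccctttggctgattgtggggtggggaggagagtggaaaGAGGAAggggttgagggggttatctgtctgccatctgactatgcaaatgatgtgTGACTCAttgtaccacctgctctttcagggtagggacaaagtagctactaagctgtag
Tlr13, chrX:106143025-106143274, plus strand: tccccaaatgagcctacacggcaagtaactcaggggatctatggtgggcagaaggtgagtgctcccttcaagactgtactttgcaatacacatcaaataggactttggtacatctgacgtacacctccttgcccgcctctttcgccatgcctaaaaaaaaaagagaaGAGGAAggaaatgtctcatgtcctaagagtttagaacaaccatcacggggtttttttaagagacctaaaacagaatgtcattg

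The motifs were searched on both strands. The capitals of Tlr6 are 2 overlapping matches to the interferon-response motif (GAAA, any 2 bases, GAAA), which 2.98% of 32851 promoters of this length hold. The window before the other listed start of Tlr6 (chr5:64960049-64960298) holds 0 such matches. Both Tlr6 windows lie inside the gene span given above. Tlr9 and Tlr13 each hold 1 match to the PU.1 core GAGGAA, found in 23.3% of promoters and also in those of Tlr1 and Tlr8, and Tlr9 holds 1 match to the AP-1 motif TGANTCA, found in 6.75%. The NF-kB motif (GGGA, any base, TTTCC), in 0.356% of promoters, was matched among the members only in Tlr3. The CRE motif TGACGTCA, in 1.55% of promoters, was matched in none of the 8, and TATAAA, in 12.4%, was matched in Tlr8 and before the other listed start of Tlr6. These are letter matches and were not tested as binding sites.

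Library totals ran from 5694928 counts in TH replicate 1 to 11929374 in WP replicate 2. Levels are given as CPM (counts per 1000000 counts) on library sizes scaled by TMM over all 8 libraries, as mean ± SD of 2 libraries (n = 2). The 6 lung markers checked, among them Sftpc and Pecam1, were above 3 counts in every group, and their sum ran from 39687 to 69704 CPM in the PBS libraries and from 18444 to 26531 CPM in the HDM libraries, with 2 called lower in WH against WP and 3 in TH against TP. Ddah1 stood at 41.0 ± 9.50 CPM in WP and 65.4 ± 16.4 in TP, but at 43.9 ± 1.15 in WH and 34.1 ± 1.08 in TH, so that the libraries labelled TH do not show the higher Ddah1 that their label would give. Xist ran from 11.3 to 20.8 CPM in the PBS libraries and from 2048 to 3040 CPM in the HDM libraries, while Y-linked Ddx3y ran from 58.7 to 68.99 and from 0.179 to 0.301 CPM. By these genes the HDM pools and the PBS pools differ in sex in both genotypes, and every difference between HDM and PBS below cannot be told apart from one of sex, also for the X-linked Tlr7, Tlr8 and Tlr13.

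In WP, the wild type lungs without allergen, the receptor genes spanned a range of levels headed by Tlr4 and Tlr3 and closed by Tlr9 and Tlr6. Per kilobase of coding length, Tlr4 stood at 20.8 ± 3.55 CPM and Tlr3 at 17.9 ± 1.76 CPM, and their libraries overlapped. Tlr2 (9.92 ± 2.10 CPM per kb), Tlr13 (8.03 ± 0.131) and Tlr7 (7.82 ± 0.453) formed the middle, with Tlr2 above Tlr13 in both libraries and Tlr13 overlapping Tlr7. Tlr5 (4.93 ± 2.46), Tlr1 (4.52 ± 1.98) and Tlr8 (4.16 ± 0.337) overlapped with their neighbours in this order, and so did Tlr9 (3.25 ± 0.723) and Tlr6 (2.77 ± 0.279) at the end. Tlr4 was also at the head in the other 3 groups, by more than the library spread in WH and TP.

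The order below Tlr4 differed from group to group. In WH, Tlr3 (17.7 ± 0.972 CPM per kb), Tlr7 (17.6 ± 1.75) and Tlr8 (16.5 ± 1.55) overlapped from one to the next, Tlr8 standing in place 4 of 10 after place 8 in WP. In TP, the last 4 places were taken by Tlr13 (3.06 ± 0.0501), Tlr1 (1.39 ± 0.604), Tlr9 (0.547 ± 0.00136) and Tlr6 (0.0619 ± 0.0875), with no overlap between neighbours. In TH, Tlr13 (19.1 ± 2.97) and Tlr2 (18.9 ± 4.34) stood next to Tlr4 (21.9 ± 1.27), the libraries of these genes and of Tlr3 and Tlr7 overlapping from one to the next, and Tlr5 was last at 1.83 ± 0.00230. Summed over the 10 genes, the level was 226 ± 3.43 CPM in WP, 183 ± 17.8 in TP, 344 ± 9.95 in WH and 351 ± 11.97 in TH, and the PBS and HDM libraries did not overlap.

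**Figure D1:**
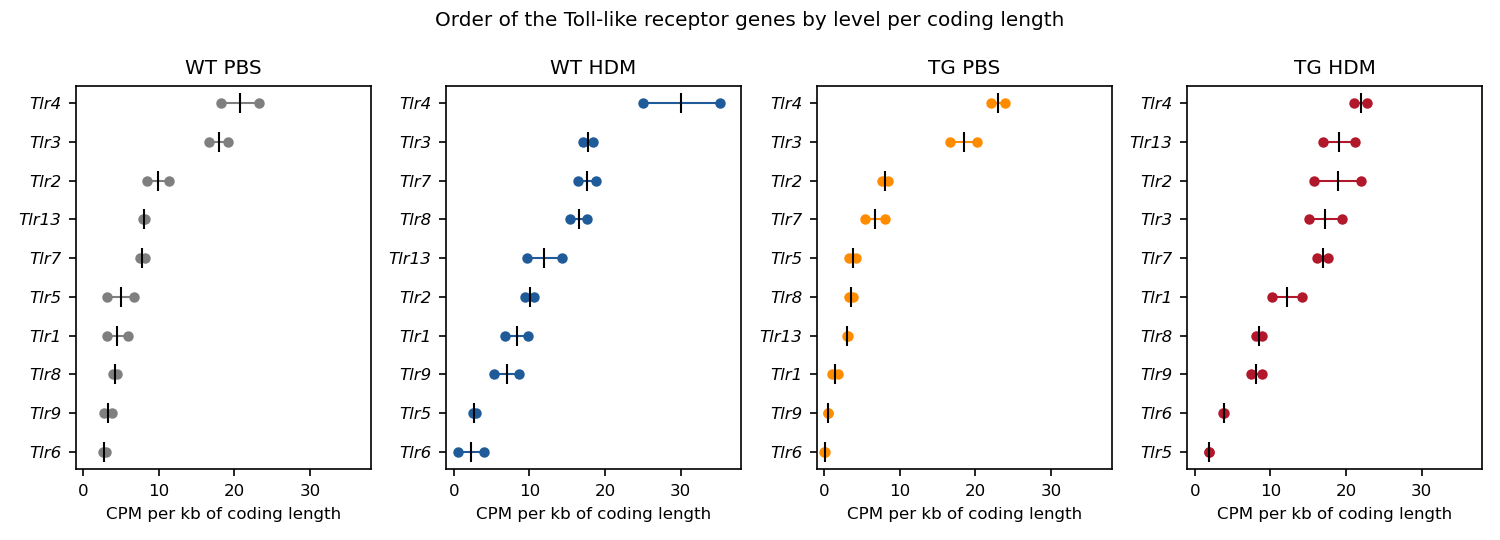
Level of each Toll-like receptor gene per kilobase of coding length (horizontal axis, CPM per kb) in the 4 groups (WT, wild type; TG, labelled DDAH1-transgenic), genes sorted by mean from top to bottom. Points are the 2 libraries joined by a line and the tick is their mean; Tlr4 heads every group, and Tlr6 is last in all groups but TH, where Tlr5 is last at 1.83.

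The comparison of TP with WP asks what the DDAH1 transgene does without allergen. Tlr6 was lower in the PBS-treated DDAH1-transgenic lungs, and 3 further receptor genes, Tlr9, Tlr1 and Tlr13, lay below the wild type libraries without passing the test. Tlr6, the partner of Tlr2 for diacylated lipopeptides, had 62 and 88 counts in WP (6.23 and 7.18 CPM) and 3 and 0 counts in TP, where the library at 0 allows up to 0.317 CPM (3 counts). With 150 counts against 3 over both libraries, and scaled for depth, WP had 44.2 times the level of TP, with an exact 95% interval from 14.8 to 217 that covers counting error only. By the quasi-likelihood test of edgeR, with Benjamini-Hochberg adjustment over 14926 genes, the log2 fold change of Tlr6 was -5.36 (SE 1.08, adjusted p = 0.0236).

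Tlr9, the CpG DNA receptor, had 11.7 and 8.49 CPM in WP and 1.70 and 1.69 CPM in TP (116 and 104 against 17 and 16 counts). Tlr13 had 23.6 and 24.2 CPM in WP and 8.98 and 9.19 CPM in TP. Tlr1, the other partner of Tlr2, had 7.43 and 14.1 CPM in WP and 2.30 and 4.33 CPM in TP. All 4 TP values of Tlr9 and Tlr13 and both of Tlr1 lay below their WP values. By the same edgeR test the log2 fold changes were -2.57 (SE 0.64, adjusted p = 0.0869) for Tlr9, -1.40 (SE 0.38, adjusted p = 0.119) for Tlr13 and -1.71 (SE 0.60, adjusted p = 0.293) for Tlr1. DESeq2 placed Tlr9 (adjusted p = 0.0159) and Tlr13 (adjusted p = 0.0336) past the threshold.

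Thus 1 of 10 members was called, where 0.657% of all genes tested were called, 0.281% higher and 0.375% lower. The groups did not overlap for 6 members, all lower in TP, and overlapped for 4. Over all genes tested 21.0% were lower and 19.3% higher without overlap. Besides the 4 genes above, Tlr2 (log2 fold change -0.32) and Tlr8 (-0.25) were lower in both libraries, though the nearest Tlr2 libraries both rounded to 19.8 CPM. Tlr5 (-0.40), Tlr7 (-0.22), Tlr4 (0.14) and Tlr3 (0.03) overlapped. The median log2 fold change of the members was -0.36, and that of all genes tested was 0.00. Leaving out WP replicate 1 (adjusted p = 0.0920) or WP replicate 2 (adjusted p = 0.136) ended the Tlr6 call, and the fitted log2 fold change was -9.15 without TP replicate 1 and -4.43 without TP replicate 2. In these bulk libraries, fewer cells of a type and less RNA per cell cannot be told apart.

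Since reads of the shared run may be split between Tlr1 and Tlr6, the counts of both genes were also added, a choice made after seeing the data. The sum had a log2 fold change of -2.35 in TP against WP (adjusted p = 0.0377, edgeR's quasi-likelihood test) and 3.49 in TH against TP (adjusted p = 0.000438). Since both genes were lower in each TP library than in each WP and TH library, the direction of the sum was fixed by its parts, and how reads were split between them was not tested.

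**Figure D2:**
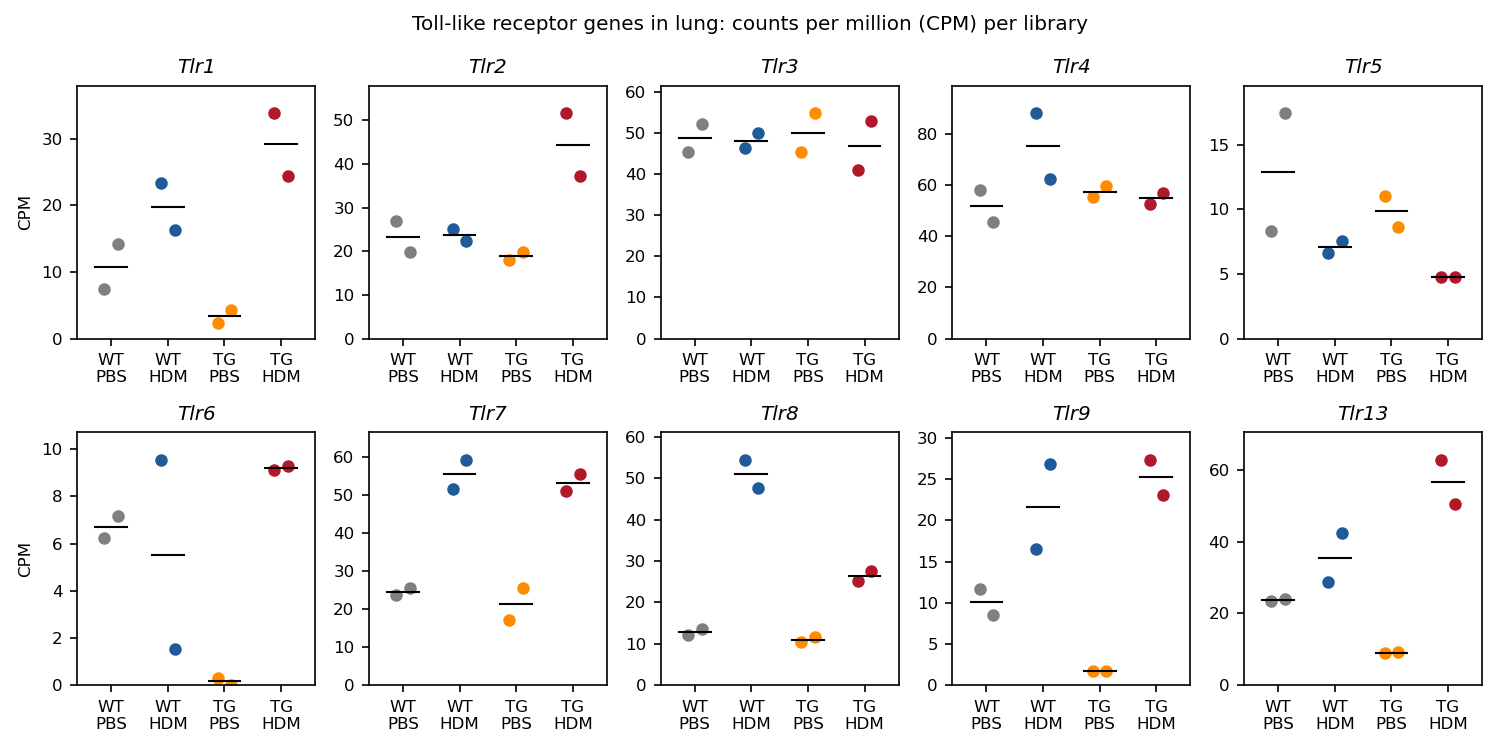
CPM (vertical axis, linear from 0) of the 10 genes in the 4 groups (WT, wild type; TG, labelled DDAH1-transgenic). Points are libraries and bars are means of 2. Both points of the PBS-treated DDAH1-transgenic lungs are the lowest for Tlr1, Tlr2, Tlr6, Tlr8, Tlr9 and Tlr13, and 1 of them is for Tlr7. Tlr7 and Tlr8 are higher in HDM-treated than in PBS-treated lungs of both genotypes.

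The comparison of WH with WP sets HDM beside PBS in wild type lungs, where the pools also differ in sex. The single-stranded RNA receptors Tlr8 and Tlr7, both X-linked, were called higher in WH, and no member was called lower. Tlr8 had 12.2 and 13.6 CPM in WP and 54.5 and 47.7 CPM in WH, a log2 fold change of 1.98 (SE 0.29, adjusted p = 0.000620, edgeR's quasi-likelihood test) or 3.96-fold. Tlr7 had 23.6 and 25.6 CPM in WP and 51.6 and 59.5 CPM in WH, a log2 fold change of 1.17 (SE 0.26, adjusted p = 0.0126) or 2.25-fold. For both genes, each WH library stood above each WP library by more than the gap between replicates. These 2 of 10 members called higher compare with 4.44% of all 15123 genes tested (2.30% were called lower and 6.74% in either direction).

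Of the other members, Tlr9 (16.5 and 26.8 CPM in WH, log2 fold change 1.10, SE 0.41), Tlr1 (23.3 and 16.3 CPM, 0.87), Tlr13 (28.8 and 42.4 CPM, 0.57) and Tlr4 (88.4 and 62.6 CPM, 0.54) lay above their WP libraries without passing the test. Their adjusted p-values by edgeR ran from 0.140 for Tlr9 to 0.319 for Tlr13. Tlr5, the flagellin receptor, had 8.34 and 17.5 CPM in WP and 6.61 and 7.53 CPM in WH (log2 fold change -0.87, adjusted p = 0.371). Tlr2 (0.02), Tlr3 (-0.02) and Tlr6 (-0.27) overlapped. The WH libraries disagreed on Tlr6, with 107 counts in replicate 1 and 15 in replicate 2 (9.56 and 1.51 CPM), on either side of the WP libraries. The groups thus did not overlap for 6 members higher and 1 lower (25.0% and 24.7% of all genes), and the median log2 fold change was 0.56 against 0.02 for all genes. Without WP replicate 1 the Tlr7 call was lost (adjusted p = 0.0591), leaving 1 call. With a library left out, the log2 fold change ran from 0.27 to 0.75 for Tlr4 and from 0.70 to 1.41 for Tlr9.

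The comparison of TH with TP sets HDM beside PBS in the libraries labelled DDAH1-transgenic, of which TH went against its label in Ddah1. Here 7 of the 10 members rose and none fell, where 8.43% of all 15086 genes were called higher and 5.35% lower (13.8% in either direction). Tlr9 had 1.70 and 1.69 CPM in TP and 27.4 and 23.1 CPM in TH, a log2 fold change of 3.91 (SE 0.52, adjusted p = 0.000554, edgeR's quasi-likelihood test) or 15.1-fold. Tlr1 had 2.30 and 4.33 CPM in TP and 33.8 and 24.5 CPM in TH, a log2 fold change of 3.16 (SE 0.50, adjusted p = 0.00183) or 8.93-fold. Tlr13 had 8.98 and 9.19 CPM in TP and 63.0 and 50.6 CPM in TH, a log2 fold change of 2.67 (SE 0.34, adjusted p = 0.000428) or 6.35-fold. For these 3 genes no alternative setting and no left-out library ended the call.

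Tlr6 had 3 and 0 counts in TP and 61 and 120 counts in TH (9.13 and 9.29 CPM). The scaled ratio of TH to TP was 60.6, with an exact 95% counting interval from 20.4 to 297, and the fitted log2 fold change was 5.83 (SE 1.13, adjusted p = 0.00565). The call was lost without TP replicate 2 (4.90, adjusted p = 0.0627), and the fitted value was 9.49 without TP replicate 1. Tlr7 had 17.1 and 25.5 CPM in TP and 51.1 and 55.5 CPM in TH (log2 fold change 1.35, SE 0.32, adjusted p = 0.0179). Tlr8 had 10.3 and 11.6 CPM in TP and 25.2 and 27.6 CPM in TH (1.29, SE 0.39, adjusted p = 0.0488). Tlr2, the common partner of Tlr1 and Tlr6, had 18.0 and 19.8 CPM in TP and 51.7 and 37.2 CPM in TH (1.26, SE 0.34, adjusted p = 0.0285).

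The calls of Tlr7, Tlr8, Tlr2 and Tlr6 were lost with some libraries left out. Leaving out TP replicate 1 ended the calls of Tlr7, Tlr2 and Tlr8. Leaving out TP replicate 2 ended those of Tlr7, Tlr2, Tlr8 and Tlr6. In both fits far fewer of all genes tested were called than with both TP libraries. Tlr2 was also lost without TH replicate 1 (0.98, adjusted p = 0.129), and Tlr8 in every left-out library and with median-ratio size factors (adjusted p = 0.0540). Tlr5 had 11.1 and 8.66 CPM in TP and 4.79 and 4.80 CPM in TH (log2 fold change -1.02, SE 0.60, adjusted p = 0.303). Tlr3 (-0.07) and Tlr4 (-0.04) overlapped between the groups, and both values turned positive (0.18 and 0.16) with an offset for transcript length. In all, 7 members higher and 1 lower did not overlap (29.6% and 27.3% of all genes), and the median log2 fold change was 1.32 against 0.03 for all genes. TP libraries serve in both this comparison and that of TP with WP, so that the low TP values of Tlr1, Tlr6, Tlr9 and Tlr13 enter both.

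The comparison of TH with WH sets the libraries labelled DDAH1-transgenic beside wild type under allergen, though Ddah1 was not higher in TH (34.9 and 33.4 CPM) than in WH (43.1 and 44.7 CPM). No member was called, by edgeR or by DESeq2, where 2.44% of all 15191 genes were called by edgeR (1.84% higher and 0.599% lower). An unadjusted p under 0.05 was found for 3 members and for 16.2% of all genes. Of the 370 genes called, 279 were higher and 91 lower, and with the offset for transcript length 107 were higher and 62 lower. Tlr2 had 51.7 and 37.2 CPM in TH and 25.0 and 22.3 CPM in WH (log2 fold change 0.95, SE 0.33, adjusted p = 0.167). Tlr13 had 63.0 and 50.6 CPM in TH and 28.8 and 42.4 CPM in WH (0.71, SE 0.31, adjusted p = 0.275). Tlr8 had 25.2 and 27.6 CPM in TH and 54.5 and 47.7 CPM in WH (-0.91, SE 0.30, adjusted p = 0.148).

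For these 3 genes, and for Tlr1 (log2 fold change 0.60), Tlr4 (-0.42) and Tlr5 (-0.52), the TH and WH libraries did not overlap, 3 members being higher and 3 lower (24.6% and 23.4% of all genes). Tlr6 (0.77), Tlr9 (0.26), Tlr3 (0.00) and Tlr7 (-0.02) overlapped. Tlr6 had 9.13 and 9.29 CPM in TH, both below the higher WH library (9.56) and above the lower one (1.51), and its log2 fold change ran from -0.0080 to 2.62 when a library was left out. The median log2 fold change of the members was 0.13, against 0.01 for all genes. With a library left out, the log2 fold change of Tlr2 ran from 0.67 to 1.18.

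Whether the difference between the genotype labels differed between the HDM and PBS pools was tested as an interaction over all 8 libraries, the log2 fold change of TH against WH minus that of TP against WP. It was positive for Tlr6, Tlr9 and Tlr13, which had negative values in TP against WP and positive values in TH against WH. The interaction was 2.07 for Tlr13 (SE 0.45, adjusted p = 0.0205), 2.78 for Tlr9 (SE 0.63, adjusted p = 0.0278) and 6.08 for Tlr6 (SE 1.38, adjusted p = 0.0276) by edgeR's quasi-likelihood test. The size for Tlr6 rests on a group with 3 counts and is no bound. As the HDM and PBS pools also differ in sex, an interaction with the challenge cannot be told apart from one with sex. These 3 of 10 members compare with 1.05% of all 15868 genes called with a positive interaction (1.76% in both directions).

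Tlr1 had an interaction of 2.26 (SE 0.66, adjusted p = 0.0933) and Tlr2 one of 1.21 (SE 0.46, adjusted p = 0.220), and neither passed the edgeR test. DESeq2 called Tlr1 (adjusted p = 0.0283), and the added counts of Tlr1 and Tlr6 had an interaction of 2.93 (adjusted p = 0.0126). Tlr7 (0.15), Tlr3 (-0.07), Tlr5 (-0.17), Tlr4 (-0.60) and Tlr8 (-0.71) did not pass, with adjusted p-values from 0.458 for Tlr4 to 0.957 for Tlr3. The median over the members was 0.68, and 0.00 over all genes. The 3 calls did not withstand every left-out library. The count was 0 without WP replicate 1 or TP replicate 2, 1 without WP replicate 2, WH replicate 1, TP replicate 1 or TH replicate 1, and 3 without WH replicate 2 or TH replicate 2.

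**Figure D3:**
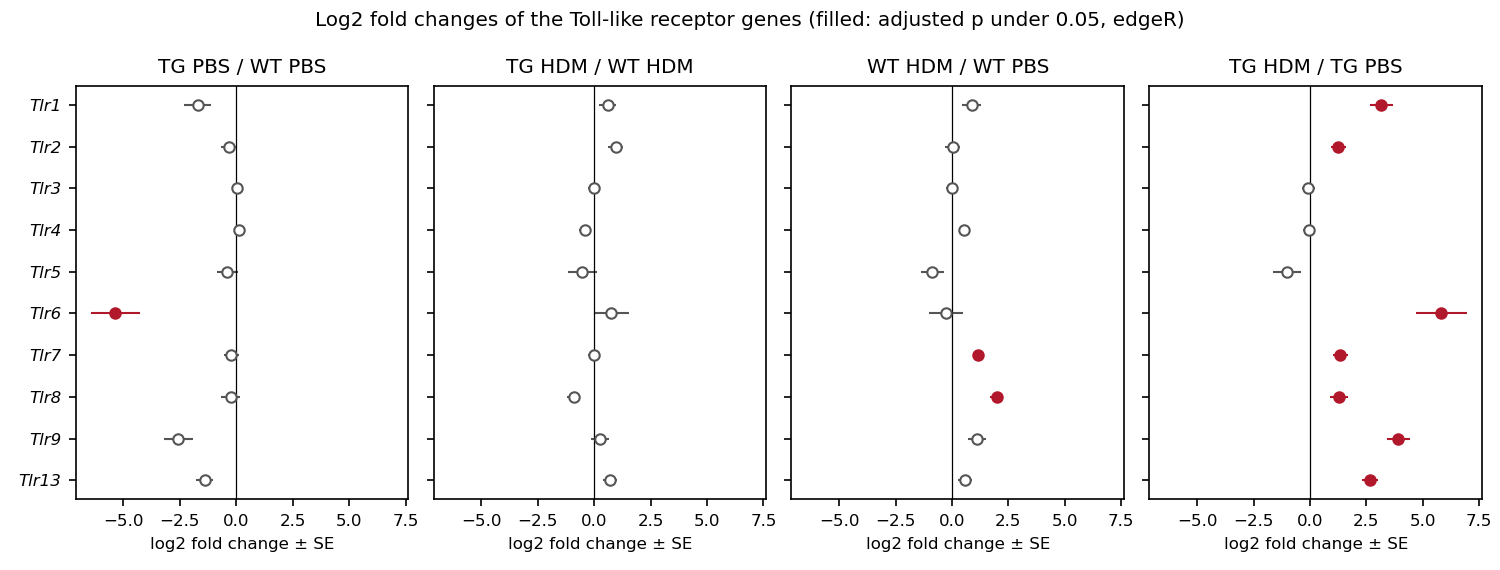
Log2 fold change (horizontal axis) of the 10 genes in the 4 comparisons, with bars of 1 SE from edgeR. Filled red points have an adjusted p under 0.05 over all genes tested: Tlr6 in the first panel, none in the second, Tlr7 and Tlr8 in the third, and Tlr1, Tlr2, Tlr6, Tlr7, Tlr8, Tlr9 and Tlr13 in the fourth; the size for Tlr6 rests on 3 counts in the PBS-treated DDAH1-transgenic libraries.

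The machinery around the receptors was described with 6 lists of 54 genes in all. Of the 8 trafficking and processing genes, 7 rose in WH against WP and 5 in TH against TP, and none fell (4.44% and 8.43% of all genes were called higher), with medians of 1.20 and 1.25 on the log2 scale. Ctss, a cysteine protease of endosomes that cleaves the endosomal receptors, had 166 and 155 CPM in WP, 713 and 723 in WH, 100 and 91.8 in TP and 1460 and 1560 in TH. The groups did not overlap. By mean level, the order from TP through WP and WH to TH is also that of Tlr1, Tlr2, Tlr9 and Tlr13. For Tlr2 the WP and WH libraries overlapped, and for Tlr9 the WH and TH libraries. No receptor gene was called in TH against WH. The log2 fold change of Ctss was 2.16 in WH against WP and 3.996 in TH against TP (SE 0.12 and 0.18). Between genotypes it was lower in TP than in WP (-0.75, SE 0.16, adjusted p = 0.0338, edgeR's quasi-likelihood test) and higher in TH than in WH (1.11, SE 0.15, adjusted p = 0.00249), and its interaction of 1.81 (SE 0.19) had an adjusted p of 1.71e-05. It was the only one of the 54 genes called in TP against WP and in the interaction.

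The protease Ctsb rose by 1.37 in WH against WP and 1.60 in TH against TP on the log2 scale. Ctsl, another of these proteases, rose by 1.87 in TH against TP (SE 0.26, adjusted p = 0.000678) and was higher in TH (283 and 217 CPM) than in WH (127 and 146 CPM), with a log2 fold change of 0.92 (SE 0.21, adjusted p = 0.0456, edgeR). Cnpy3, a chaperone of several Toll-like receptors, rose by 1.32 in wild type lungs, and its value in TH against TP was -0.24 (adjusted p = 0.752).

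Among the 7 co-receptors and ligand carriers, 2 rose in WH against WP (4.44% of all genes). In TH against TP 2 rose and 1 fell (8.43% and 5.35% of all genes). Ly86, which pairs with the Toll-like receptor relative Cd180, rose in WH against WP and in TH against TP (1.33 and 1.98 on the log2 scale). Ly96, the lipopolysaccharide-binding partner of Tlr4, rose in wild type lungs (1.79, SE 0.47, adjusted p = 0.0349, edgeR's quasi-likelihood test) from 3.82 and 10.5 to 23.1 and 27.0 CPM. Its TP libraries stood far apart, at 18.6 and 4.12 CPM. Cd14, which hands lipopolysaccharide to Tlr4 and Ly96, rose in TH against TP (2.02, SE 0.34, adjusted p = 0.00262) from 10.3 and 14.5 to 47.8 and 51.0 CPM. Cd36, a scavenger receptor that delivers ligands to Tlr2 and Tlr6, fell in TH against TP by 0.96 on the log2 scale (SE 0.16, adjusted p = 0.00235).

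Of the 10 transcription factors, 3 rose in WH against WP and 2 in TH against TP (4.44% and 8.43% of all genes were called higher). Irf7, which drives type I interferon genes after Tlr7 and Tlr9 signalling, rose by 3.33 (SE 0.36) in WH against WP and 2.61 (SE 0.51) in TH against TP on the log2 scale, with 5.33 and 4.65 CPM in WP and 37.8 and 62.5 CPM in WH. Irf8 rose by 1.14 and 2.48, though the TH libraries had 47.6 and 115 CPM. Irf5 rose by 1.59 in wild type lungs and had a value of 1.27 (adjusted p = 0.103, edgeR) in TH against TP. None of the 6 adaptors, with Myd88, the 15 kinases and ubiquitin ligases, or the 8 negative regulators was called in any comparison, and their medians in TH against TP were 0.28, 0.09 and 0.44. Over all 6 lists, 12 of 53 genes tested rose in WH against WP (4.44% of all genes). In TH against TP 9 of 53 rose and 1 fell (8.43% and 5.35% of all genes). Higher in TH than in WH were 2 of 53 (1.84% of all genes), and 1 of 54 was lower in TP than in WP (0.375%). The adaptor Sarm1 was too low for the test in 3 comparisons. The remaining members of the family, Tlr11 and Tlr12, had 4 to 68 and 1 to 28 counts per library and were called in no comparison in which they were tested.

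Marker genes of cells known to carry these receptors moved in the same comparisons. The 11 monocyte and macrophage markers summed to 376 to 383 CPM in WP, 880 to 904 in WH, 268 to 276 in TP and 757 to 833 in TH. In WH against WP 7 of the 11 rose and in TH against TP all 11 rose (4.44% and 8.43% of all genes were called higher), while in TP against WP none was called and 10 had negative values, with a median of -0.77. The 7 B cell markers summed to 134 to 154 CPM in WP, 413 to 461 in WH, 65.5 to 78.7 in TP and 304 to 492 in TH, with 6 genes risen in WH against WP and 4 in TH against TP. Both sums were thus lowest in TP, as were the neutrophil, thymocyte and eosinophil sums of the lists described below. The mean levels of Tlr1, Tlr2, Tlr6, Tlr7, Tlr8, Tlr9 and Tlr13 were also lowest in TP. For Tlr7 the TP and WP libraries overlapped. Other immune cell lists were not lowest in TP. The alveolar macrophage sum was 742 to 758 CPM in TP and 582 to 587 in WP. The conventional dendritic cell sum was 278 to 312 CPM in TP and 198 to 212 in TH. The plasmacytoid dendritic cell sum was 293 to 295 CPM in TP and 270 to 314 in WP.

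The 11 neutrophil markers in the table summed to 462 to 501 CPM in WP and 188 to 223 in TP, where 5 of 11 were lower (median -2.43) and Ngp and Camp were at or below 3 counts per library, and to 273 to 279 in WH and 291 to 307 in TH, with 3 called in the interaction. The 8 thymocyte markers summed to 107 to 108 CPM in WP, 43.2 to 68.8 in WH, 30.6 to 35.2 in TP and 45.5 to 50.1 in TH. They were highest in WP, with 3 called lower in TP and 4 in WH, and Rag1, Rag2 and Dntt were at or below 3 counts per library in both TP and WH. The 8 alveolar macrophage markers summed to 582 to 587 CPM in WP, 742 to 758 in TP, 9426 to 9694 in WH and 3790 to 4720 in TH, with 3 genes risen in each comparison of HDM with PBS. Their median log2 fold change in WH against WP was 0.05, with 4 of 8 negative, and Chil3, named after its values were seen, had 4.59. The plasmacytoid dendritic cell markers (5 genes) summed to 270 to 354 CPM over all libraries, with 2 risen in WH against WP (median 0.96) and 1 in TH against TP (median 1.14). The conventional dendritic cell markers (6 genes) summed to 198 to 332 CPM, with 1 risen and 1 fallen in TH against TP. Of 5 eosinophil markers, summing to 13.9 to 32.6 CPM, Epx was at or below 3 counts in every library. The skeletal muscle markers (6 genes) summed to 2.81 to 6.20 CPM in WP, 79.6 to 103 in WH, 166 to 167 in TP and 41.5 to 57.0 in TH. All 6 were higher in TP and 5 in WH than in WP, and 5 were called in the interaction. Of the 6 adipose tissue markers, 4 were tested in TP against WP, 1 of them lower. Of all genes tested, 0.281% were called higher and 0.375% lower in TP against WP, and 4.44% and 2.30% in WH against WP. In TH against TP 8.43% were called higher and 5.35% lower, and 1.76% were called in the interaction. The part of these cell types in the receptor values was not tested.

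**Figure D4:**
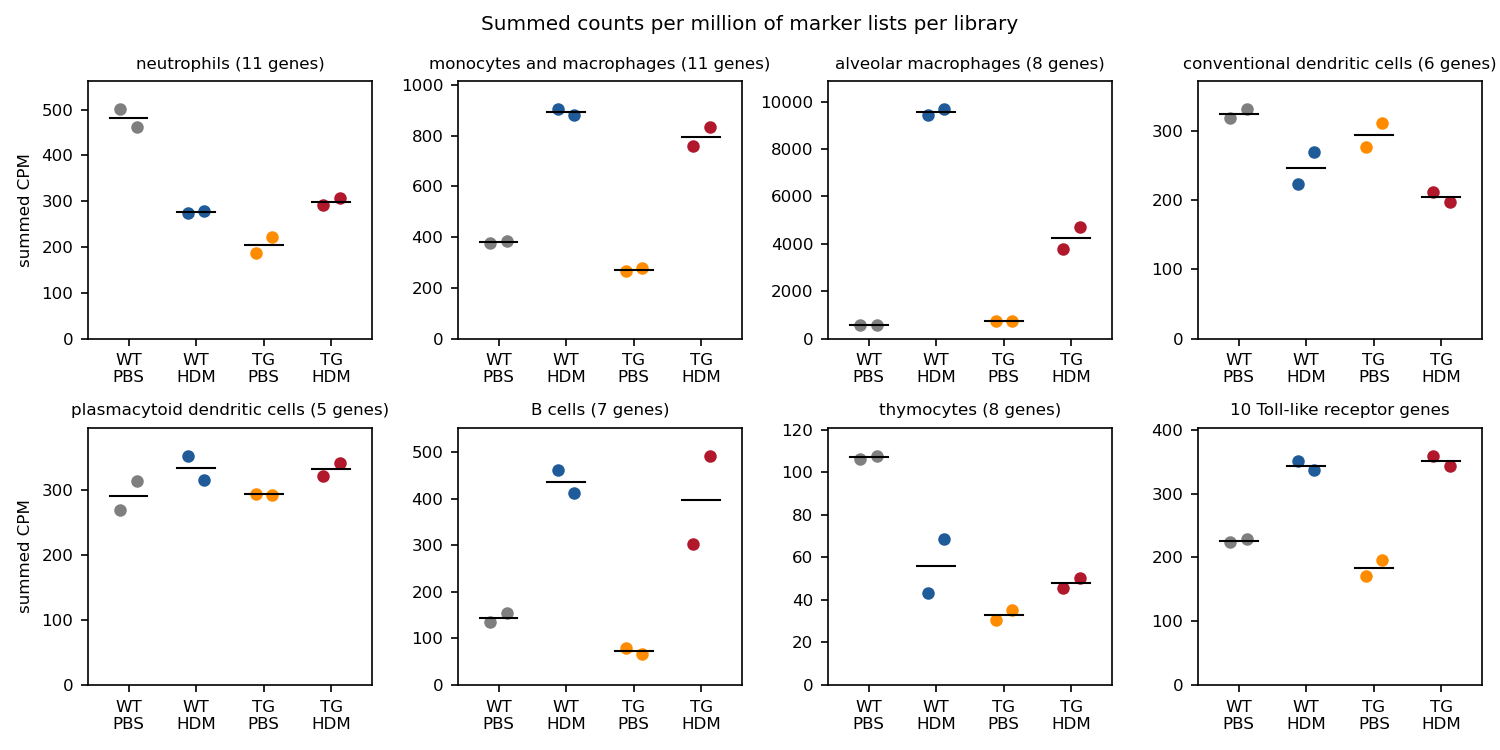
Summed CPM (vertical axis, linear from 0) of 7 lists of cell type markers and of the 10 Toll-like receptor genes in the 4 groups (WT, wild type; TG, labelled DDAH1-transgenic). Points are libraries and bars are means of 2. Monocyte and macrophage markers (268 to 276 CPM) and B cell markers (65.5 to 78.7 CPM) are lowest in the PBS-treated DDAH1-transgenic lungs. So are neutrophil markers (188 to 223 CPM), thymocyte markers (30.6 to 35.2 CPM) and the receptor sum. Alveolar macrophage and dendritic cell markers are not lowest there.

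Over the 8 libraries, the genes most like Tlr6, the member called in a comparison of genotypes, were 4930404I05Rik (Pearson's r of log2 CPM 0.969), Aacs (0.967) and Lyar (0.963), among 15867 genes. 4930404I05Rik had 0 to 12 counts per library. All 3 had their lowest counts in the TP libraries and, outside TP, in WH replicate 2, the WH library in which Tlr6 was low. They were picked for likeness to Tlr6 over these same libraries, so the shared low libraries follow from the choice. Among the members, r with Tlr6 was 0.819 for Tlr9, 0.812 for Tlr1 and 0.798 for Tlr13, and 0.0598 for Tlr4, -0.308 for Tlr5 and -0.345 for Tlr3. The points share pools in pairs and the same library sizes, so these values are a description with no test.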

How the data were processed

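Lung RNA of 4 groups was sequenced with 2 libraries per group, and the 2 libraries were duplicates of 1 pool of 4 mice. The authors built the libraries with a PrepX SPIA kit, mapped single reads of 50 bases to the mouse genome (mm10, GRCm38) and deposited raw counts of the reads in each Entrez gene's coding region, summed with ShortRead and R programs of their own. The submitters' processing notes name bcl2fastq, CASAVA 1.8, TopHat and DESeq. The treatment of reads that map to several genes and the strand setting are not given in the sources used here. All 8 count columns matched a library and 0 were left unused.

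From RefSeq (GRCm38.p6), 23372 of 23469 identifiers got a symbol. GENCODE M21 gave coding sequences, and transcript lengths for 21145 genes. Each comparison was fitted on its own libraries with edgeR 4.0.16 (R 4.3.3): filterByExpr with a count minimum of 10, TMM scaling, the quasi-likelihood test without a replicate block, and Benjamini-Hochberg adjustment over all genes tested, with a gene called at an adjusted p under 0.05. The interaction was fitted on all 8 libraries. A count of 3 per library was taken as the limit of detection, and log2 CPM for correlations used a prior count of 2. Groups were taken as not overlapping where both libraries of one lay above both of the other. Counting intervals are exact Clopper-Pearson intervals. The fits were tested on simulated counts.

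The alternatives were median-ratio (RLE) size factors, DESeq2 1.42.0, no low-count filter, a replicate block, library sizes without Rn45s and haemoglobin genes, an offset for transcript length (loess, span 0.5) with and without the block, all 8 libraries in the fit, and leaving out each library. In each group the counts of the replicates varied beyond sampling noise, so both were kept.

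All 10 members were named. Of the pathway lists, genes called in a comparison of genotypes or the interaction were named, and up to 3 called genes per list, largest first, in each comparison of HDM with PBS. Ddah1 and the marker genes served as checks. For Tlr6, the member called between genotypes, the 3 genes with the highest correlation were named. The members and lists were chosen with earlier results of these data known.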

Additional observations from a re-analysis of the deposited data

Results flagged for a closer look

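For 3 receptor genes the difference between the genotype labels differed between the HDM and PBS pools, by a test of the difference itself. The test was the quasi-likelihood test of edgeR over 8 libraries, with Benjamini-Hochberg adjustment over all genes. The log2 fold change of TH against WH exceeded that of TP against WP by 6.08 for Tlr6 (adjusted p = 0.0276), by 2.78 for Tlr9 (adjusted p = 0.0278) and by 2.07 for Tlr13 (adjusted p = 0.0205). Over all 15868 genes tested, 1.05% were called with a positive interaction. The HDM and PBS pools also differ in sex, so HDM and sex cannot be told apart here. Ddah1 was not higher in TH (34.1 CPM) than in WH (43.9 CPM). With 2 pooled libraries per group, no group was large enough to look for a library far from the rest. Tlr6 had 107 counts in WH replicate 1 and 15 in WH replicate 2, and with a library left out its log2 fold change ran from -0.0080 to 2.62 in TH against WH and from -2.15 to 0.50 in WH against WP.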

How the results depend on the processing

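Of 675 recomputed values for the 50 pairs of a receptor gene and a comparison, 591 kept their direction and their side of the threshold, 29 lost a call, 15 gained one and 40 turned sign. None of the 13 called values turned sign. The number of receptor genes called in TP against WP, 1, was 3 both with DESeq2 and with no low-count filter, 2 with all 8 libraries in the fit, 0 with a replicate block and 2 with the length offset and the block. With a library left out it ran from 0 to 2 in TP against WP, from 0 to 1 in TH against WH, from 1 to 3 in WH against WP, from 3 to 6 in TH against TP and from 0 to 3 in the interaction. A library left alone in its group is assumed to vary like the other group.

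Same-numbered replicates did not deviate together (correlations from -0.0214 to 0.0317), so the numbers do not pair the samples. The replicate block lost the Tlr6 call in TP against WP (-5.48, adjusted p = 0.143, edgeR) and no other receptor call. With it, 45 genes were called in TP against WP (98 without it) and 625 in TH against WH (370 without it). DESeq2 called 223 and 922 genes in these comparisons, no filter gave 306 and 1055, and the length offset 169 in TH against WH.

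Tlr9 in TP against WP was also called by edgeR with all 8 libraries (adjusted p = 0.0141), without the filter (0.0148) and with the length offset and block (0.0454). With a library left out, its log2 fold change ran from -2.79 to -2.32.

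Signs turned only at values near 0 or with a library left out. Tlr3 in TH against WH (0.00) was -0.019 with RLE factors, -0.018 with DESeq2, -0.0085 without the filter, -0.0098 with the replicate block and -0.035 with all 8 libraries. With the length offset, alone and with the block, Tlr7 in TH against WH was 0.10 and 0.10, Tlr3 in WH against WP 0.045 and 0.047, Tlr3 in TH against TP 0.18 and 0.17, Tlr4 in TH against TP 0.16 and 0.16, and Tlr3 in the interaction 0.11 and 0.10. With a library left out, TP against WP ran from -0.10 to 0.17 for Tlr3, -0.034 to 0.33 for Tlr4, -0.82 to 0.23 for Tlr5 and -0.53 to 0.047 for Tlr7. TH against WH ran from -0.19 to 0.16 for Tlr3, -0.0080 to 2.62 for Tlr6, -0.14 to 0.090 for Tlr7 and -0.067 to 0.66 for Tlr9. WH against WP ran from -0.19 to 0.25 for Tlr2, -0.11 to 0.077 for Tlr3 and -2.15 to 0.50 for Tlr6. TH against TP ran from -0.27 to 0.081 for Tlr3 and -0.11 to 0.011 for Tlr4, and the interaction from -0.28 to 0.10 for Tlr3, -0.80 to 0.26 for Tlr5 and -0.10 to 0.47 for Tlr7. The cause of these turns was not tested.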
